A study of Mus musculus with 13 samples.

Results

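Collagen genes, taken as every gene on the array whose symbol is Col followed by a number, the letter a and a number, numbered 42 of the 19752 named genes on the array. They were read with 61 probes, and 14 of the genes had more than 1 probe. RefSeq lists 44 collagen symbols of this form, and no probe was matched to the other two, Col6a3 and Col12a1, which were not analysed here. Of the 42 genes, 31 entered the tests, because all arrays of 1 group or more read their probe well above background, and 11 did not. For 18 of the 31, the probe stood above background on all 12 arrays. No collagen probe was saturated.

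The RNA came from adipose tissue of male C57BL/6J mice. Fv2E-PERK joins the kinase part of PERK, a stress kinase of the endoplasmic reticulum, to a domain that the ligand AP20187 pulls into pairs, so that the ligand switches the kinase on. There were 5 groups. Brown adipose tissue (BAT) of mAP::Fv2E-PERK transgenic mice was taken 12 h after an intraperitoneal injection. The injection held AP20187 at 100 ng/g (2 arrays) or vehicle (2 arrays). White adipose tissue (WAT) of such mice was taken likewise after AP20187 (3 arrays) or vehicle (2 arrays). WAT of untreated wild-type mice gave 3 arrays. Brown fat of wild-type mice and wild-type mice given AP20187 were not analysed here, and all 4 groups other than wild type carry the transgene, for which the labels give the name mAP::Fv2E-PERK and no further word on its promoter. The treatment protocol speaks of muscles, while every sample is labelled WAT or BAT. The labels do not say whether the arrays of a group come from separate animals. Nor do they say whether BAT and WAT arrays come from the same animals, and the main tests treat them as unpaired. A p-value here thus weighs a difference against the spread of arrays, and precision is limited by how few there are.

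Collagens are secreted proteins built of 3 chains wound into a triple helix, which is folded and hydroxylated in the endoplasmic reticulum before export. Fibrillar types such as I, III and V make the load-bearing fibres of connective tissue, type IV makes the sheet of the basement membrane, and type VI makes beaded filaments that anchor cells to both. In fat, every adipocyte is wrapped in a basement membrane rich in types IV and VI, while fibroblasts between the adipocytes make most of the fibrillar chains. In tissue RNA, fewer cells of a type and less RNA per cell cannot be told apart.

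Levels below are the log2 processed signal after subtraction of each array's 75th percentile, so 1 unit is a doubling, and 0 is the level that 75% of the array's signals lie under. A level compares arrays for 1 probe and does not compare genes with each other. Between 46.4% and 64.0% of spots stood well above background on an array, least in brown fat (46.4 to 49.0%) and most in WAT given vehicle (61.2 and 64.0%). All 4 BAT arrays lie on 1 slide with no WAT array, so tissue and slide cannot be told apart. The brown adipocyte markers averaged 4.81 to 6.82 on BAT arrays and -2.60 to -0.03 on WAT arrays, with no overlap. A further array, titled and tissue-labelled as vehicle BAT but with WAT as its source name, was left out of all groups.

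The tissue difference came first in size. In BAT given vehicle against WAT given vehicle, 18 of the 31 tested collagen genes, or 58.1%, passed the threshold of an adjusted p under 0.05, and 23.4% of all 24459 features did. Of the 18 genes, 16 fell and 2 rose, where 9.17% of all features fell and 14.3% rose. The median log2 change over the 31 genes was -1.60, and over all features it was 0.11. The vehicle groups did not overlap for 27 of the 31 genes, with brown fat below in 22 (30.0% of all features) and above in 5 (39.0% of all features). Over all arrays, the 4 BAT arrays lay below all 8 WAT arrays for 18 collagen genes, against 11.2% of all features, and above them for 2 genes, Col9a2 and Col27a1, against 14.0% of all features. Of the 31 genes, 9 entered the tests through a white fat group alone and none through a brown fat group alone. The 9 were Col4a3, Col4a6, Col6a5, Col6a6, Col8a2, Col9a1, Col15a1, Col26a1 and Col28a1. Each of them was thus required to be bright in white fat, which favours a fall in brown fat. Among the 18 genes well above background on all 12 arrays, 11 fell and 1 rose, with a median change of -1.61. The matching shares of all features above background on all 12 arrays are not reported here. With the contradictory array counted as BAT given vehicle, 0 collagen genes and 0 features of 24459 passed, and the median was -1.01. Counted as WAT given vehicle, 21 of the 31 genes fell and 2 rose. The share of all features that passed in that second fit is not reported here.

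Several cell type markers differed between BAT given vehicle and WAT given vehicle. Of 7 fibroblast and preadipocyte markers 4 fell, and their mean level was 1.47 to 2.12 on BAT arrays, against 3.03 to 3.40 on WAT arrays. All 5 mesothelial markers fell, with means of -5.21 to -4.22 on BAT arrays, against 1.85 to 2.79 on WAT arrays. All 4 liver markers fell too, with means of -3.98 to -3.81 on BAT arrays, against -1.10 to 4.32 on WAT arrays. Skeletal muscle and Schwann cell markers went the other way. Of 6 skeletal muscle markers 5 rose, with means of 0.72 to 4.95 on BAT arrays, against -4.41 to -1.11 on WAT arrays. Of 4 Schwann cell markers 3 rose, with means of -0.50 to 0.18 on BAT arrays, against -2.92 to -1.20 on WAT arrays. Among 4 tested macrophage markers 2 fell, with means that overlapped between the tissues, 1.86 to 2.71 on BAT arrays and 1.81 to 4.31 on WAT arrays. None of the 6 endothelial markers passed, and they averaged 2.38 to 2.78 on BAT arrays, against 1.01 on WAT AP20187 1 and 2.19 to 2.56 on the other WAT arrays. The part of any of these cells in the collagen differences was not tested.

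**Figure D1:**
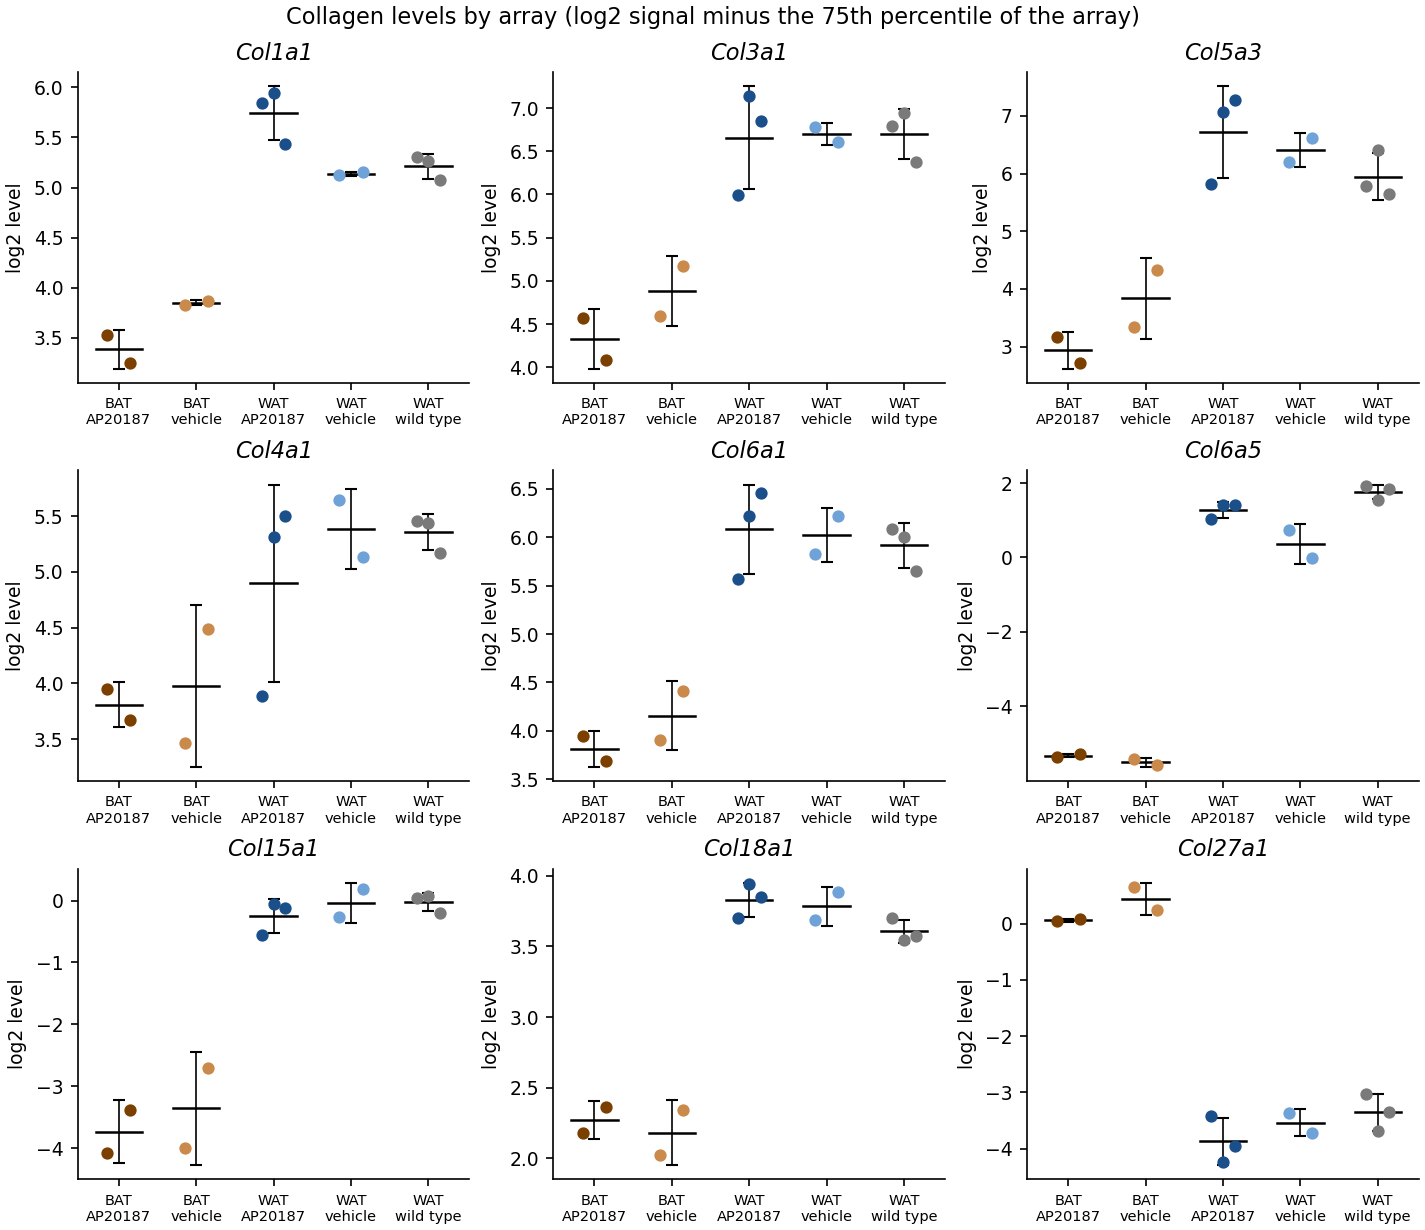
Levels of 9 collagen genes on each of the 12 arrays (points), with the mean (horizontal line) and SD (bar) of each group, for BAT given AP20187, BAT given vehicle, WAT given AP20187, WAT given vehicle and wild-type WAT. The vertical axes are log2 signal relative to each array's 75th percentile and differ between panels. Col27a1 is higher in brown fat and the other genes have lower means there. For Col4a1, BAT vehicle 3 at 4.49 lies above WAT AP20187 1 at 3.88.

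Among the fibrillar collagens, 6 of 8 tested genes fell in BAT given vehicle relative to WAT given vehicle and 1 rose. Col1a1 and Col1a2 encode the chains of type I collagen, the main fibril of skin, bone and tendon. Col1a1 had levels of 3.52 and 3.25 in BAT given AP20187, 3.83 and 3.87 in BAT given vehicle, 5.84, 5.95 and 5.44 in WAT given AP20187, 5.12 and 5.15 in WAT given vehicle, and 5.31, 5.26 and 5.07 in wild-type WAT. Every BAT array was below every WAT array, and in BAT given vehicle Col1a1 was 2.44-fold lower than in WAT given vehicle (log2 change -1.29, SE 0.21, n = 2 and 2, adjusted p from limma 0.00308). Col1a2 stood at 5.04 and 4.73 in BAT given AP20187, 5.38 and 5.36 in BAT given vehicle, 6.70 and 6.71 in WAT AP20187 1 and 3, 6.88 and 6.61 in WAT given vehicle, and 6.93, 6.83 and 6.42 in wild-type WAT. The tissues again did not overlap, and the change was -1.37 (SE 0.23, adjusted p from limma 0.00459). The spot of Col1a2 on WAT AP20187 2 was marked as an outlier and dropped.

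Col3a1, the chain of type III collagen that runs beside type I in soft tissue, had levels of 4.57 and 4.09 in BAT given AP20187, 4.60 and 5.18 in BAT given vehicle, 6.00, 7.13 and 6.85 in WAT given AP20187, 6.78 and 6.60 in WAT given vehicle, and 6.79, 6.94 and 6.37 in wild-type WAT. It was 3.50-fold lower in BAT given vehicle (log2 change -1.81, SE 0.39, adjusted p from limma 0.0112), with no overlap of the tissues. The 3 chains of type V collagen, which starts fibrils and limits their width, all fell. Col5a1 had levels of 0.81 and 0.59 in BAT given AP20187, 0.80 and 1.40 in BAT given vehicle, 2.83, 3.95 and 4.05 in WAT given AP20187, 3.63 and 3.67 in WAT given vehicle, and 3.67, 3.54 and 3.22 in wild-type WAT. Col5a2 had levels of -2.64 and -2.08 in BAT given AP20187, -2.42 and -1.92 in BAT given vehicle, -0.97, 0.32 and -0.02 in WAT given AP20187, -0.09 and 0.28 in WAT given vehicle, and 0.25, 0.25 and -0.04 in wild-type WAT. Col5a3 reached 3.16 and 2.71 in BAT given AP20187, 3.33 and 4.33 in BAT given vehicle, 5.81, 7.07 and 7.27 in WAT given AP20187, 6.20 and 6.62 in WAT given vehicle, and 5.78, 6.40 and 5.64 in wild-type WAT. None of the 3 genes had a BAT array at the level of a WAT array. Their changes were -2.55 for Col5a1 (SE 0.40, adjusted p 0.00266), -2.27 for Col5a2 (SE 0.41, adjusted p 0.00501) and -2.58 for Col5a3 (SE 0.53, adjusted p 0.00887), all from limma. The call of Col3a1 was lost without WAT vehicle 1 (adjusted p 0.0646) or BAT vehicle 2 (0.0792), and that of Col5a3 without WAT vehicle 2 (0.0564) or BAT vehicle 2 (0.0665). Col11a2, a chain of type XI collagen of cartilage fibrils, did not pass (log2 change 0.27, SE 0.49).

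Col27a1, a fibrillar chain known mainly from cartilage, went the other way. Its level was 0.04 and 0.08 in BAT given AP20187, 0.64 and 0.24 in BAT given vehicle, -3.42, -4.24 and -3.95 in WAT given AP20187, -3.37 and -3.71 in WAT given vehicle, and -3.04, -3.68 and -3.35 in wild-type WAT. All 4 BAT arrays stood more than 3 log2 units above all 8 WAT arrays. In BAT given vehicle it was 15.8-fold higher than in WAT given vehicle (log2 change 3.98, SE 0.31, n = 2 and 2, adjusted p from limma 1.66e-04). Of the 5 listed cartilage and tendon markers, 3 were tested. Their mean was -3.59 to -2.81 on BAT arrays, against -0.40 on WAT AP20187 1 and -2.65 to -1.95 on the other WAT arrays. The part of such cells in the Col27a1 difference was not tested.

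The promoter windows of 4 collagen genes are printed from RefSeq, build GRCm38.p6. Each runs from 250 bases before to 50 bases after the annotated start, 5′ to 3′ on the strand of the gene. Capitals mark the letters of 4 motifs searched on both strands, the TATA box (TATAAA), the CCAAT box (CCAAT), the GC box (GGGCGG) and the core bound by C/EBP-ATF dimers (TGATGNAA). Col27a1, at chr4:63215162-63215461 on the plus strand, is the gene that was higher in brown fat. Col6a5, at chr9:105960594-105960893 on the minus strand, is a type VI chain read above background in white fat alone. Col4a1, at chr8:11312777-11313076 on the minus strand, and Col4a2, at chr8:11312555-11312854 on the plus strand, are the pair of basement membrane chains that start 21 bases apart and run in opposite directions, with 78 bases common to both windows.
Col27a1: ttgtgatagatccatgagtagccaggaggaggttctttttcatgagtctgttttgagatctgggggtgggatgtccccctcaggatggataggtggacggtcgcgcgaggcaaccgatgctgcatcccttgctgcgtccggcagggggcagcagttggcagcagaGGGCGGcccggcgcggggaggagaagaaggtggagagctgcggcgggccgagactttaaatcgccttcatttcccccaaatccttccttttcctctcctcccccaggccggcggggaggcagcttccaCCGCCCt
Col6a5: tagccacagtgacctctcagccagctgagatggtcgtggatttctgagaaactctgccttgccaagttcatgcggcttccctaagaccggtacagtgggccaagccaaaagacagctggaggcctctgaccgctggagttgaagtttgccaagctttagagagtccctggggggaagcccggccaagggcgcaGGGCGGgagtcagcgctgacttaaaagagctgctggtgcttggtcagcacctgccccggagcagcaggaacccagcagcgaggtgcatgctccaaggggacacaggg
Col4a1: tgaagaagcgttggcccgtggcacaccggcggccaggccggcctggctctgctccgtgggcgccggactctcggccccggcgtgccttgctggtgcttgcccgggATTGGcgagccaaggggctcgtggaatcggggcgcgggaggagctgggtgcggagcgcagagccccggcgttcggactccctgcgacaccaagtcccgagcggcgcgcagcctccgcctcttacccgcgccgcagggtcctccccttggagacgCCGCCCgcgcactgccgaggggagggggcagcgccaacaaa
Col4a2: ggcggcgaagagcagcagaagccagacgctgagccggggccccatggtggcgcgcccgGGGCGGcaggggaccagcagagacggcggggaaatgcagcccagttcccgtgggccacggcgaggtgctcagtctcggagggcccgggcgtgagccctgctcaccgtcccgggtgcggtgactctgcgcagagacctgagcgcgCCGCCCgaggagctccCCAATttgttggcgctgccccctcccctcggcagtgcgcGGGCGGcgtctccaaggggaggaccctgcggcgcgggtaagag
The 4 windows held no TATA box and no C/EBP-ATF core. The GC box occurred in all 4, with 2 copies for Col27a1, 1 for Col6a5, 1 for Col4a1 and 3 for Col4a2. The CCAAT box occurred only in the windows of Col4a1 and Col4a2. RefSeq gave 37 windows for 34 of the 42 genes. The GC box stood in 23 of the 37 (62.2%), against 35.7% of all 32851 windows. CCAAT stood in 13 (35.1%), against 37.4%, TATAAA stood in 5 (13.5%), against 13.6%, and TGATGNAA stood in 0, against 3.97%.

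For the basement membrane collagen of type IV, all 6 genes had a negative log2 change in BAT given vehicle relative to WAT given vehicle, and 2 of them passed the test. Col4a1 and Col4a2 encode the chains found in nearly every basement membrane. Col4a1 had levels of 3.95 and 3.67 in BAT given AP20187, 3.46 and 4.49 in BAT given vehicle, 3.88, 5.31 and 5.50 in WAT given AP20187, 5.64 and 5.13 in WAT given vehicle, and 5.46, 5.44 and 5.17 in wild-type WAT. Col4a2, whose window is printed beside that of Col4a1, had 4.30 and 3.96 in BAT given AP20187, 3.92 and 4.72 in BAT given vehicle, 4.27, 5.72 and 5.71 in WAT given AP20187, 5.49 and 5.18 in WAT given vehicle, and 5.36, 5.47 and 5.08 in wild-type WAT. On WAT AP20187 1 both genes stood at the level of brown fat, and on the other 7 WAT arrays both stood above all BAT arrays. The change in BAT given vehicle was -1.41 for Col4a1 (SE 0.53, adjusted p from limma 0.0875) and -1.02 for Col4a2 (SE 0.48, adjusted p from limma 0.166). Without WAT AP20187 1, an array of neither group, the same 2 differences had adjusted p-values of 0.0143 and 0.0265.

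Col4a3 to Col4a6 encode chains of narrower distribution, which in kidney, lung and smooth muscle form networks of their own. Col4a5 had levels of -2.39 and -1.56 in BAT given AP20187, -1.99 and -1.90 in BAT given vehicle, 0.92, 1.08 and 0.80 in WAT given AP20187, 0.85 and 0.56 in WAT given vehicle, and 0.96, 1.06 and 1.45 in wild-type WAT. It was 6.26-fold lower in BAT given vehicle (log2 change -2.65, SE 0.29, adjusted p from limma 6.57e-04). Col4a6, which lies head to head with Col4a5 on the X chromosome with starts 1343 bases apart, had -4.25 and -4.74 in BAT given AP20187, -5.42 and -5.62 in BAT given vehicle, 0.86, 0.79 and 0.46 in WAT given AP20187, 0.36 and 0.11 in WAT given vehicle, and 0.68, 0.74 and 1.71 in wild-type WAT. Its probe was well above background on all 8 WAT arrays and on none of the 4 BAT arrays. It was at least 14.4-fold lower in BAT given vehicle than in WAT given vehicle, where the bound sets WAT given vehicle against the lowest signal called well above background on each BAT array (adjusted p from limma 5.83e-05). A further Col4a6 probe, dimmer on average and well above background on all 12 arrays, read -1.22 and -1.07 in BAT given vehicle, against -1.86 and -1.72 in WAT given vehicle. The 2 probes of Col4a6 thus disagree in direction. Col4a3 and Col4a4 are neighbours on chromosome 1. The levels of Col4a3 were -5.94 to -5.43 in BAT and -5.06 to -2.66 in WAT, and those of Col4a4 were -3.05 to -2.55 in BAT and -1.63 to 0.18 in WAT. Neither gene passed (adjusted p from limma 0.112 and 0.0567), though the tissues did not overlap for either. Without WAT AP20187 1 both passed (adjusted p 0.0179 and 0.0124).

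All 4 tested chains of type VI collagen fell in BAT given vehicle relative to WAT given vehicle. Col6a1 and Col6a2 encode the chains common to all type VI molecules and lie side by side on chromosome 10. Col6a1 had levels of 3.94 and 3.68 in BAT given AP20187, 3.91 and 4.41 in BAT given vehicle, 5.57, 6.22 and 6.46 in WAT given AP20187, 5.83 and 6.22 in WAT given vehicle, and 6.09, 6.01 and 5.65 in wild-type WAT. Col6a2 had levels of 1.88 and 1.42 in BAT given AP20187, 1.88 and 2.32 in BAT given vehicle, 3.13, 3.84 and 4.02 in WAT given AP20187, 3.61 and 3.80 in WAT given vehicle, and 3.90, 3.85 and 3.60 in wild-type WAT. No BAT array reached a WAT array for either gene. The falls were 3.65-fold for Col6a1 (log2 change -1.87, SE 0.33, adjusted p from limma 0.00444) and 3.05-fold for Col6a2 (log2 change -1.61, SE 0.32, adjusted p from limma 0.00748). Without BAT vehicle 2, the adjusted p of Col6a2 was 0.0557.

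Col6a5 and Col6a6 encode chains that can take the place of Col6a3 in type VI collagen and are neighbours on chromosome 9. Col6a5, whose window is printed above, had levels of -5.35 and -5.29 in BAT given AP20187, -5.42 and -5.58 in BAT given vehicle, 1.04, 1.41 and 1.40 in WAT given AP20187, 0.75 and -0.02 in WAT given vehicle, and 1.91, 1.54 and 1.83 in wild-type WAT. It was well above background on all 8 WAT arrays and on none of the 4 BAT arrays. In BAT given vehicle it was at least 15.7-fold lower than in WAT given vehicle (adjusted p from limma 1.54e-05). Col6a6 had levels of -4.30 and -3.05 in BAT given AP20187, -5.11 and -5.33 in BAT given vehicle, -4.35, -3.65 and -3.69 in WAT given AP20187, -3.40 and -3.88 in WAT given vehicle, and -2.55, -3.54 and -3.45 in wild-type WAT. A dimmer probe of Col6a6, well above background on no BAT array, read -5.73 to -5.40 in BAT and -4.71 to -2.60 in WAT. On the probe tested, the brown and white ranges overlapped. The Col6a6 change of -1.58 (SE 0.48, adjusted p from limma 0.0418) was the fall nearest to the threshold. No BAT vehicle array read it well above background and its white fat signal lay near that floor, so no fold is given. Its call was lost when any 1 of 7 arrays was left out, namely either array of either vehicle group, wild type 2, wild type 3 or WAT AP20187 3, with adjusted p-values of 0.0522 to 0.194. It was also lost with the replicate number as a block (adjusted p 0.116), with quantile scaling (-1.38, adjusted p 0.0707) and with normexp and quantile scaling (-0.20, adjusted p 0.409).

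Both multiplexins, collagens of the basement membrane zone, fell. Col18a1, the chain that endostatin is cut from, had levels of 2.18 and 2.37 in BAT given AP20187, 2.02 and 2.34 in BAT given vehicle, 3.70, 3.94 and 3.85 in WAT given AP20187, 3.69 and 3.88 in WAT given vehicle, and 3.70, 3.54 and 3.57 in wild-type WAT. It was 3.04-fold lower in BAT given vehicle than in WAT given vehicle (log2 change -1.60, SE 0.18, adjusted p from limma 8.04e-04). Col15a1 had levels of -4.08 and -3.38 in BAT given AP20187, -4.0 and -2.71 in BAT given vehicle, -0.56, -0.06 and -0.11 in WAT given AP20187, -0.27 and 0.19 in WAT given vehicle, and 0.05, 0.07 and -0.19 in wild-type WAT. Its probe was well above background on all 8 WAT arrays, on 1 of the 2 arrays of BAT given vehicle and on neither array of BAT given AP20187, so no fold is given. The fitted log2 change in BAT given vehicle was -3.32 (SE 0.42, adjusted p from limma 0.00111), and the tissues did not overlap for either gene.

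The collagens that sit on fibrils were divided, with 2 of 5 falling and 1 rising. Col14a1 had levels of 0.02 and -0.23 in BAT given AP20187, -0.15 and 0.59 in BAT given vehicle, 2.06, 2.53 and 2.01 in WAT given AP20187, 2.24 and 3.12 in WAT given vehicle, and 2.21, 2.01 and 1.68 in wild-type WAT. Col16a1 had levels of 0.32 and 0.03 in BAT given AP20187, 0.21 and 0.37 in BAT given vehicle, 3.30, 2.54 and 2.52 in WAT given AP20187, 2.67 and 2.82 in WAT given vehicle, and 2.73, 2.73 and 2.75 in wild-type WAT. Both were lower on every BAT array, with changes of -2.47 (SE 0.36, adjusted p 0.00208) for Col14a1 and -2.45 (SE 0.27, adjusted p 6.61e-04) for Col16a1 from limma. Col9a2, a chain of the type IX collagen of cartilage, had levels of -1.85 and -2.05 in BAT given AP20187, -1.87 and -1.66 in BAT given vehicle, -2.57, -2.62 and -2.40 in WAT given AP20187, -2.63 and -2.66 in WAT given vehicle, and -2.79, -2.74 and -2.77 in wild-type WAT. It rose 1.84-fold in BAT given vehicle (log2 change 0.88, SE 0.16, adjusted p from limma 0.00599), and each BAT array was above each WAT array. In the authors' value table its change was 0.08 (adjusted p 0.882), and fitted on the 4 compared arrays alone its adjusted p was 0.0595. The call of Col1a2 was also lost in that table (change -2.17, adjusted p 0.205).

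The remaining tested collagens did not pass the test between tissues. Among them Col8a2, a chain of the hexagonal network collagen of vessel walls and the cornea, had -5.76 and -5.69 in BAT given AP20187, -5.69 and -4.29 in BAT given vehicle, -6.30, -2.45 and -1.69 in WAT given AP20187, -0.29 in WAT vehicle 1, and -0.07, -0.04 and -0.10 in wild-type WAT. The spot of WAT vehicle 2 was an outlier and was dropped, so 1 array stands for that group. By this probe, Col8a2 was at least 9.96-fold lower in BAT given vehicle than on that array. A dimmer probe of Col8a2 went the other way. It read -3.42 and -3.93 in BAT given vehicle, where it was not well above background, against -4.36 and -4.58 in WAT given vehicle. Col7a1, the anchoring fibril chain of skin, varied between arrays of a group, and its level was 1.32 on WAT AP20187 1, 0.18 on wild type 3 and -0.32 on BAT vehicle 2, and -2.69 to -1.64 on the other 9 arrays. The 11 genes that did not enter the tests were Col2a1, Col6a4, Col9a3, Col10a1, Col11a1, Col13a1, Col17a1, Col19a1, Col22a1, Col24a1 and Col25a1. They include the main chains of cartilage fibrils (Col2a1) and of the hemidesmosome of epithelia (Col17a1).

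**Figure D2:**
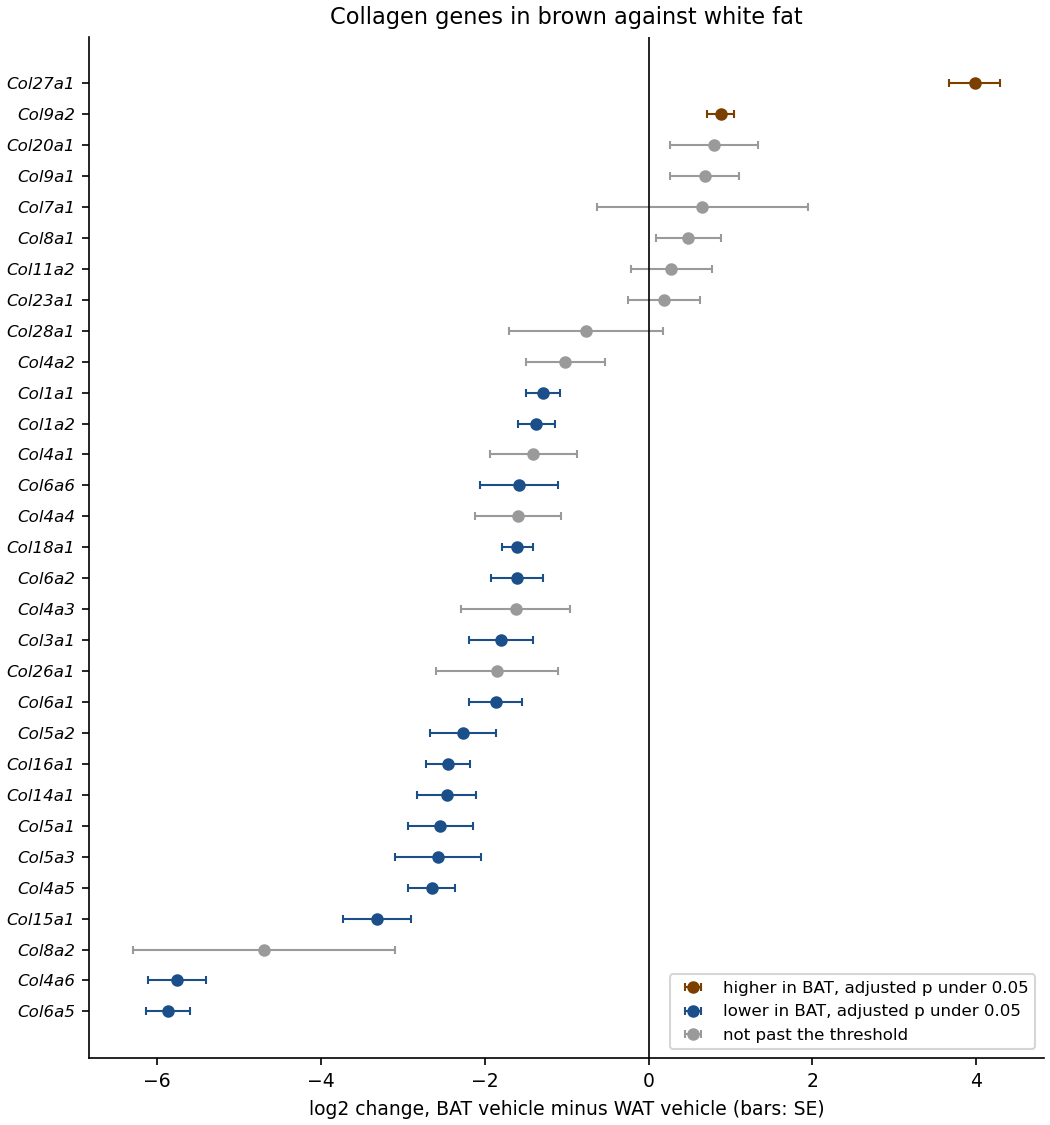
Log2 change of each of the 31 tested collagen genes in BAT given vehicle relative to WAT given vehicle (n = 2 and 2 arrays), sorted by size, with the SE as a bar. Brown points rose, blue points fell at an adjusted p under 0.05, and grey points did not pass. Where the probe was not well above background in BAT given vehicle, as for Col6a5, Col4a6 and Col8a2, the plotted value is the fitted one and not a measured fold.

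The second comparison asked what 12 h of AP20187 did to collagen RNA in white fat. In WAT given AP20187 against WAT given vehicle, 0 of 31 collagen genes passed in limma, and 2.24% of all features did. At an unadjusted p under 0.05 there were 2 genes, Col6a5 and Col1a1, and 22.3% of all features. The median change over the 31 genes was 0.04, against 0.15 over all features. The groups did not overlap for 4 genes above (26.2% of all features) and 2 below (12.3% of all features). Col6a5, at 1.04, 1.41 and 1.40 in WAT given AP20187 and 0.75 and -0.02 in WAT given vehicle, had a change of 0.92 (SE 0.25, adjusted p from limma 0.0814). Without WAT AP20187 1 its change was 1.04 and its adjusted p was 0.0449. Col1a1, at 5.84, 5.95 and 5.44 in WAT given AP20187 and 5.12 and 5.15 in WAT given vehicle, had a change of 0.61 (SE 0.19, adjusted p from limma 0.116). Its partner chain Col1a2 had a change of -0.04 (SE 0.23). Col8a2 had the most negative change, -3.19 (SE 1.51, adjusted p from limma 0.260), against the single usable vehicle array. Its AP20187 arrays ran between -6.30 on WAT AP20187 1 and -1.69, and the change ranged between -4.31 and -0.41 over the alternatives. The dimmer probe of Col8a2 read -4.07, -4.15 and -4.53 in WAT given AP20187, where it was not well above background, against -4.36 and -4.58 in WAT given vehicle.

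In brown fat, the question was the same. In BAT given AP20187 against BAT given vehicle, 0 of 31 collagen genes passed in limma, and 0.00818% of all features did. At an unadjusted p under 0.05 there were 3 genes, Col6a6, Col4a6 and Col9a1, and 7.37% of all features. Of the 31 genes, 23 had a negative change, where 54.5% of all features had one, and the median was -0.30, against -0.04 over all features. Among the 18 genes above background on all 12 arrays, 17 had a negative change. The matching share of all features above background on all 12 arrays is not reported here, nor is this count without BAT vehicle 3. The groups did not overlap for 8 genes below (21.6% of all features) and 5 above (15.8% of all features). Without BAT vehicle 3, 17 of 31 changes were negative, against 56.2% of all features. The median was then -0.036, against -0.056 over all features. With the replicate number as a block, 17 of 31 were also negative, against 54.6% of all features. Without BAT vehicle 2, 23 of 31 were negative, against 50.4% of all features. The skeletal muscle markers, all 6 of them tested, averaged 4.95 on BAT vehicle 3, 0.72 on BAT vehicle 2, and 4.19 and 3.29 in BAT given AP20187. On BAT vehicle 3 the fibroblast markers were also highest of the BAT arrays, at 2.12, against 1.47 to 1.73 on the other 3. The part of these cells in the collagen changes was not tested.

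By gene, Col6a6 stood at -4.30 and -3.05 in BAT given AP20187, against -5.11 and -5.33 in BAT given vehicle, for a change of 1.55 (SE 0.48, adjusted p from limma 0.475). The probe tested was well above background on none of the BAT vehicle arrays. The dimmer Col6a6 probe, well above background on no BAT array, read -5.50 and -5.40 with AP20187, against -5.51 and -5.73 with vehicle. For Col4a6, at -4.25 and -4.74 with AP20187 and -5.42 and -5.62 with vehicle, the fitted change was 1.02 (SE 0.35, adjusted p from limma 0.529). Col9a1, another chain of type IX collagen, stood at -5.43 and -4.91 with AP20187 and at -4.18 and -4.13 with vehicle, a fitted change of -1.02 (SE 0.42, adjusted p from limma 0.637). No BAT array read the tested probe of Col4a6 or of Col9a1 well above background, so no fold is given for either. The other Col4a6 probe, well above background on all 12 arrays, went the other way. It read -1.58 and -1.83 with AP20187, against -1.22 and -1.07 with vehicle. Among the bright chains, both chains of type I collagen were lower in both AP20187 arrays than in both vehicle arrays, with changes of -0.46 (SE 0.21, adjusted p 0.688) for Col1a1 and -0.48 (SE 0.23, adjusted p 0.716) for Col1a2.

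A test of the difference between the tissues' responses gave 0 of 31 collagen genes past the threshold in limma, and 0% of all features passed. At an unadjusted p under 0.05 there were 3 collagen genes, Col1a1, Col9a1 and Col6a6, and 16.5% of all features. For Col1a1 the response in BAT minus the response in WAT was -1.07 on the log2 scale (SE 0.28, adjusted p from limma 0.144). This gene was below vehicle on both BAT arrays with AP20187 and above vehicle on all 3 WAT arrays with AP20187. The corresponding differences were -1.64 for Col9a1 (SE 0.57, adjusted p 0.203) and 1.80 for Col6a6 (SE 0.64, adjusted p 0.216). Both rest on signals near background. The Col9a1 probe was well above it on 1 of the 9 arrays of these 4 groups, and the Col6a6 probe on 4 of the 9. Over the 31 genes the median difference was -0.19, against -0.16 over all features.

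**Figure D3:**
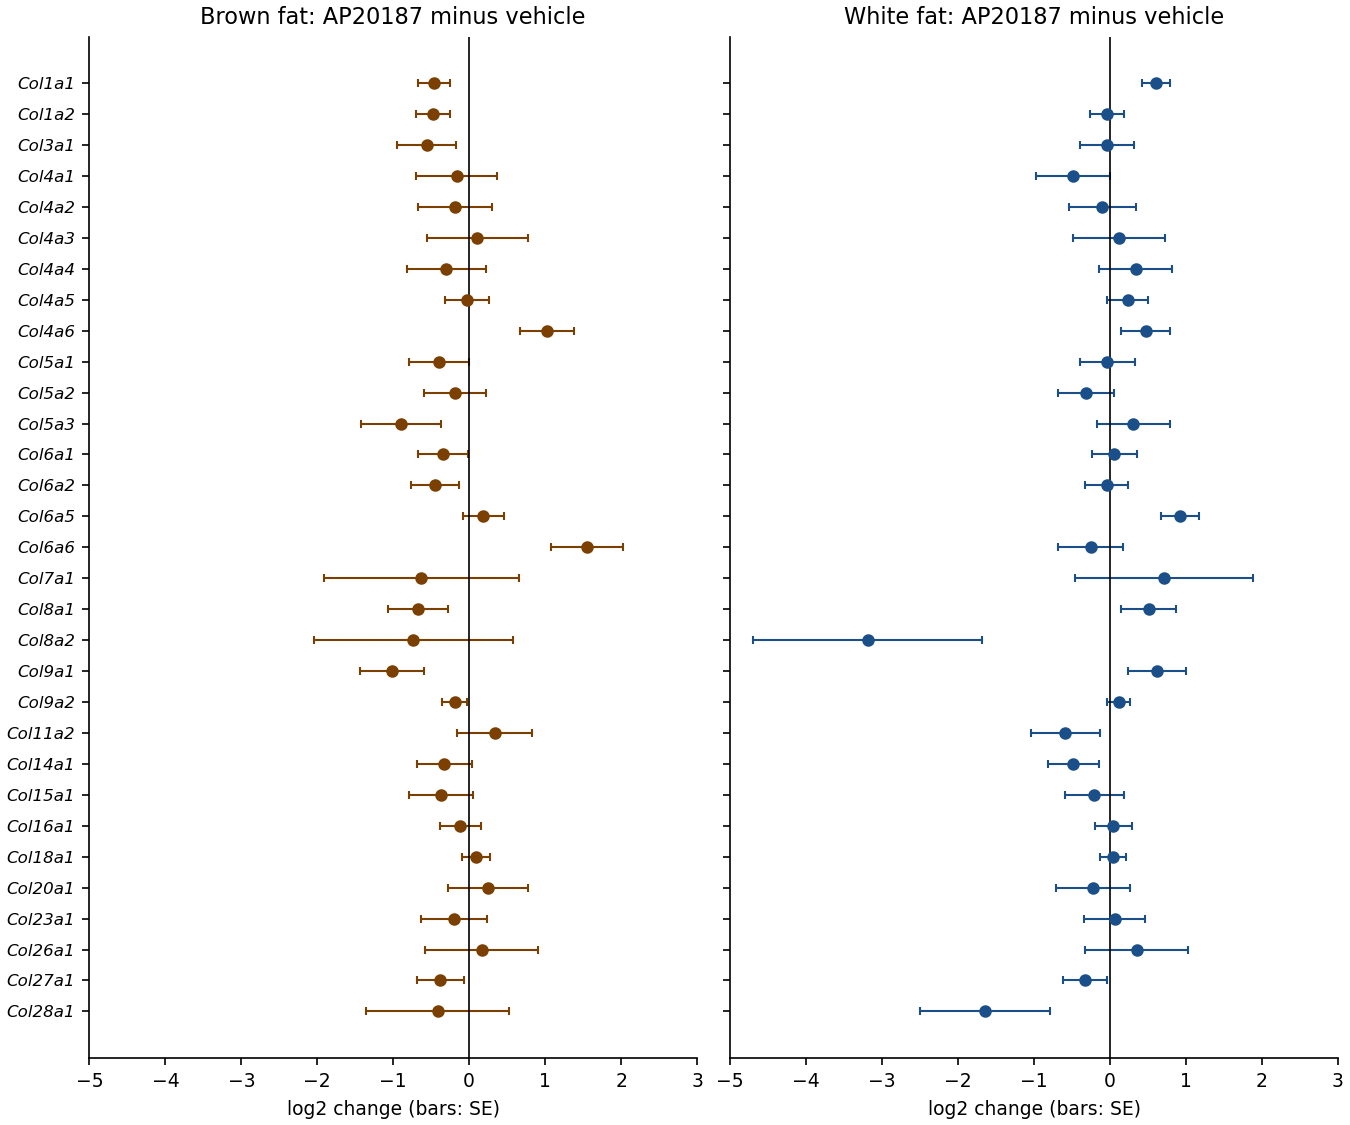
Log2 change with AP20187 relative to vehicle for the 31 tested collagen genes, in brown fat on the left (n = 2 and 2 arrays) and in white fat on the right (n = 3 and 2 arrays), with the SE as a bar. No gene passed the threshold in either tissue. In brown fat 23 points lie left of 0, and the median is -0.30, against 0.04 in white fat.

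Transgenic white fat with vehicle was set against wild-type white fat to read the transgene and the injection without the ligand. In WAT given vehicle against wild-type WAT, 0 of 31 collagen genes passed in limma, and 0.0245% of all features did. There were 4 genes at an unadjusted p under 0.05, and 5.02% of all features. The median change was -0.06, against 0.02 over all features, and the groups did not overlap for 7 genes below (15.3% of all features) and 2 above (19.5% of all features). Col6a5 was the gene with the smallest p. It stood at 0.75 and -0.02 in WAT given vehicle, against 1.91, 1.54 and 1.83 in wild-type WAT, for a change of -1.40 (SE 0.25, adjusted p from limma 0.253). Col4a6 had a change of -0.81 (SE 0.32, adjusted p from limma 0.919). On wild type 3, Col4a6 was 1.71, against 0.68 and 0.74 on the other two wild-type arrays, and the smooth muscle and pericyte markers averaged 4.85 there, against 2.33 to 2.94 on the other 11 arrays. The other Col4a6 probe, well above background on all 12 arrays, overlapped between the groups. It read -1.86 and -1.72 in WAT given vehicle, against -1.75, -1.96 and -1.59 on wild type 1, 2 and 3. The part of smooth muscle in the Col4a6 value was not tested. Col9a1 had -5.46 and -4.21 in WAT given vehicle, against -3.52, -4.40 and -3.72 in wild-type WAT, for a change of -0.95 (SE 0.38, adjusted p from limma 0.919).

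WAT given AP20187 was also set against wild-type WAT. All 3 AP20187 arrays lay on slide 2 and all 3 wild-type arrays on slide 1, and the groups also differ in the transgene. With slide as a block, where the WAT vehicle arrays link the slides, 0 features passed in limma, and 2 collagen genes and 5.32% of all features had an unadjusted p under 0.05. Without it, 0 of 31 collagen genes passed in limma, while 8.87% of all features passed, and 2 collagen genes, Col1a1 and Col8a2, had an unadjusted p under 0.05, as did 28.6% of all features. The median change was -0.12, against 0.16 over all features. Col1a1 had a change of 0.53 (SE 0.17, adjusted p from limma 0.0817), with all 3 AP20187 arrays above the 3 wild-type arrays. Col8a2 had a change of -3.41 (SE 1.07, adjusted p from limma 0.0828), and Col6a5 had one of -0.47 (SE 0.22, adjusted p 0.194), which turned to 0.29 (adjusted p 0.962) with slide as a block. Without WAT AP20187 1, Col5a3 rose by 1.23 on the log2 scale (adjusted p from limma 0.0408). In the same fit Col4a3 (-1.80, adjusted p 0.0193), Col8a2 (-2.0, adjusted p 0.0214) and Col4a4 (-1.23, adjusted p 0.0363) fell. The share of all features that passed in that fit is not reported here, and the groups still lie on separate slides. The Col4a3 probe was well above background on 1 of the 3 AP20187 arrays and read -4.16 and -5.06 on replicates 2 and 3. The comparison with wild type and the one with vehicle share the 3 AP20187 arrays.

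One array of WAT given AP20187, replicate 1, stood apart. Correlations between arrays of WAT given AP20187 were 0.876 to 0.937 over all features, where the other groups had 0.974 to 0.993. Against a range of 5.08 to 5.72 on the other 7 WAT arrays, Col4a1 and Col4a2 were 3.88 and 4.27 there. Col5a2 was -0.97, against -0.09 to 0.32 on the other WAT arrays, and Col5a1 was 2.83, against 3.22 to 4.05. In the other direction, Col7a1 was 1.32 there and Col16a1 was 3.30, against 2.52 to 2.82 on the other WAT arrays. On the same array the endothelial markers averaged 1.01, the macrophage markers 1.81 and the adipocyte markers 6.39, against 2.19 to 2.56, 3.30 to 4.31 and 7.24 to 8.02 on the other WAT arrays. The epididymis markers, of which 2 of 7 were tested, averaged 8.89 there and 1.41 on WAT AP20187 2, against -3.54 to -1.0 on the other 10 arrays. The part of these cells in the collagen values of that array was not tested.

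**Figure D4:**
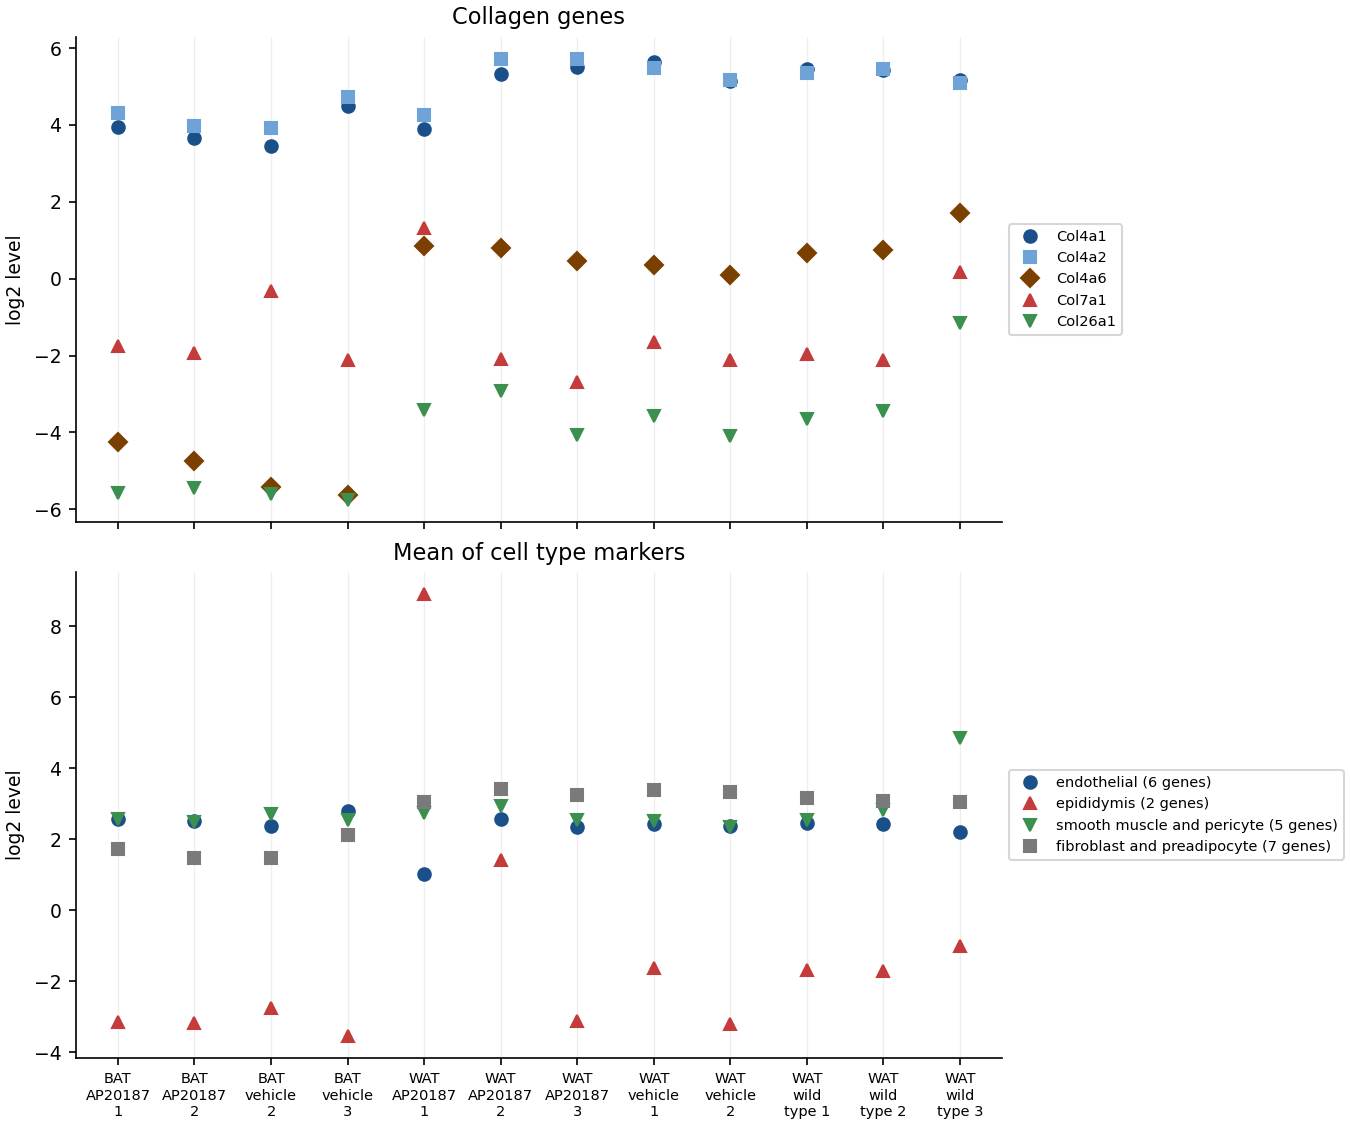
Levels of 5 collagen genes (upper panel) and mean levels of 4 marker lists (lower panel) on each of the 12 arrays, in log2 signal relative to each array's 75th percentile. WAT AP20187 1 is low for Col4a1 (3.88), Col4a2 (4.27) and the endothelial markers (1.01) and high for Col7a1 (1.32) and the epididymis markers (8.89). Wild type 3 is high for Col4a6 (1.71), Col26a1 (-1.14) and the smooth muscle markers (4.85).

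The machinery around collagen was read from 6 lists of genes. Between the tissues, in BAT given vehicle against WAT given vehicle, 0 of the 80 tested genes rose and 34 (42.5%) fell, where 14.3% of all features rose and 9.17% fell. Of the 13 collagen-binding matrix proteins, 10 fell, among them Fbln1 (fibulin-1, 12.8-fold lower), Fn1 (fibronectin, 10.2-fold lower), Fmod (fibromodulin, which coats fibrils, 9.44-fold lower) and Nid1 (nidogen, which ties type IV collagen to laminin, 6.06-fold lower). Of 11 tested genes for procollagen processing and cross-linking, 6 fell, such as Adamts2, the protease that removes the amino-terminal propeptide (5.65-fold lower), and the lysyl oxidase-like genes Loxl3 (2.33-fold lower) and Loxl2 (3.83-fold lower). Of 21 genes for folding in the endoplasmic reticulum, 5 fell, including P4hb, a subunit of prolyl 4-hydroxylase (3.04-fold lower), and P3h3, a prolyl 3-hydroxylase family member (2.36-fold lower). Breakdown genes fell in 6 of 14, among them Timp2, an inhibitor of matrix proteases (6.26-fold lower), and Ctsk, a collagen-cutting cathepsin (2.62-fold lower). Of 9 collagen receptors, 4 fell, with Itga11, an integrin subunit, 5.99-fold lower and Ddr1 4.12-fold lower. In the TGF-beta list, 3 of 12 fell, with Ccn2, a TGF-beta target, 4.08-fold lower. The adjusted p-values of the genes named here lay between 1.82e-04 (Fmod) and 0.0132 (Loxl2) in limma.

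With AP20187, no gene of the 6 lists passed in either tissue against vehicle. Against wild-type WAT, 5 of the 80 tested genes rose in WAT given AP20187 and none fell. That is 6.25% of the lists, near the 7.20% of all features that rose. P3h1, a prolyl 3-hydroxylase of collagen, rose 1.58-fold (adjusted p from limma 0.0331), and P4hb rose 1.63-fold (adjusted p from limma 0.0442). Mmp9, a gelatinase, rose 2.83-fold (adjusted p from limma 0.0412). Smad7, an inhibitor of TGF-beta signalling, rose 1.98-fold (adjusted p from limma 0.0406), and Tgfbr1, a TGF-beta receptor, rose 1.64-fold (adjusted p from limma 0.0447). The AP20187 arrays lay on slide 2 and the wild-type arrays on slide 1, and with slide as a block all 5 calls were lost (adjusted p from limma 0.944 to 0.962).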

How the data were processed

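Adipose RNA was measured by Cy3 labelling on 1-colour Agilent arrays (design 028005, genome build mm9 in their headers). The deposited intensity, per the file headers, is the processed signal of Agilent Feature Extraction 10.7.1.1, corrected for background array by array and unscaled across arrays. In the authors' value table, 99.0 to 99.2% of the intensity values on each array matched it within 0.1%, and some low values were blank by a rule not given in the sources used here.

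Names came from RefSeq accessions of GRCm38.p6, matched without versions: of 55681 probes, 26056 had 1 gene, 0 had several and 29625 had none. Outlier spots were dropped, spots of a probe were averaged, and each level is log2 intensity less the array's 75th percentile. A probe was kept if any of the 5 groups read it well above background throughout (32616 probes), and the brightest probe stood for a gene (24459 features, 15086 named). The 12 arrays were fitted together with limma 3.58.1 (lmFit, eBayes) in R 4.3.3, 2-sided, with Benjamini-Hochberg adjustment over all features at 0.05. "At least" folds set the brighter group's mean against, per array of the dim group, whichever was higher, the dim probe itself or the faintest probe called well above background.

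Slide 1 holds the wild-type arrays and WAT vehicle 1, slide 2 holds the other WAT arrays and the array with contradictory labels, and slide 3 holds all BAT arrays. Same-numbered arrays were not shown to share animals. Between BAT and WAT given AP20187, their deviations from the group means correlated at 0.024 for replicate 1 and 0.023 for replicate 2.

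The collagen genes, the other gene lists and the tests were chosen with earlier results of these data known. Values on every array are given for genes past the threshold, for the chains that make up most adipose collagen and for the 3 smallest p-values where none passed. Up to 4 genes of each other list are named. Alternatives were other scalings, background corrections and filters, other choices of probe or arrays, and slide or replicate number as a block. Others put the contradictory array into BAT or WAT vehicle, or left out arrays 1 at a time. Leaving out spots in weak areas of an array was chosen after seeing the data. The fit was tested on simulated data.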

Additional observations from a re-analysis of the deposited data

Results flagged for a closer look

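For Col1a1, every array of BAT given AP20187 lay below the BAT vehicle arrays and every array of WAT given AP20187 lay above the WAT vehicle arrays, and neither change passed in limma (adjusted p = 0.688 in BAT and 0.116 in WAT). The difference of the responses was -1.07 on the log2 scale (SE 0.28), and the test of that difference in limma did not pass (adjusted p = 0.144).

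Of the collagen genes that did not enter the tests, 2 were read well above background on WAT AP20187 1. Col17a1, an epithelial membrane collagen, stood at -1.43 there, and Col11a1, a chain of cartilage fibrils, at -3.04. The epididymis markers averaged 8.89 on the same array. Their part in these readings was not tested.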

How the results depend on the processing

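Among gene results under alternatives, 777 kept their direction and their side of the threshold, 36 lost the threshold, 4 passed it and 4 turned sign. For BAT given vehicle against WAT given vehicle the number of calls lay between 16 and 23 under the alternatives that kept all arrays, with 1 exception. Placing the contradictory array in BAT given vehicle left 0 calls and a median of -1.01, with 0 of 24459 features called, and made the brown fat median for AP20187 -0.89 and the difference of responses -0.95. The authors' value table gave a tissue median of -2.30 over 26 genes. With the percentile taken over probes above background on all arrays, the medians were -0.26 for WAT given AP20187 against vehicle (all features -0.16), -0.49 against wild type (all features -0.21) and 0.10 for the difference of responses (all features 0.12).

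For WAT given AP20187 against vehicle, 1 gene (Col6a5, change 0.92, adjusted p 0.0386) passed with no filter. Against wild type, 1 gene passed with normexp and quantile scaling (Col8a2, -1.71, adjusted p 0.0477) and 1 with WAT AP20187 1 and 2 left out (Col4a3, -2.25, adjusted p 0.0304). The sign turned for Col4a6 in brown fat with AP20187 (-0.56 with the stricter filter, -1.06 with the contradictory array in BAT vehicle). It also turned for Col4a6 between tissues (0.65 with the stricter filter). In both comparisons the stricter filter uses the other probe of Col4a6. For Col6a5 in WAT given AP20187 against wild type, the sign turned with slide as a block (0.29). Beyond that change of probe, the causes were not tested.

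With 1 array left out, calls and medians were 0 to 1 and -0.04 to 0.06 for WAT given AP20187 against vehicle, 0 and -0.43 to -0.036 for BAT given AP20187 (-0.036 without BAT vehicle 3), 0 and -0.15 to -0.01 for WAT given vehicle against wild type, 0 to 4 and -0.30 to -0.06 for WAT given AP20187 against wild type, 14 to 23 and -1.77 to -1.32 between tissues, and 0 and -0.33 to -0.17 for the difference of responses. With the replicate block there were 18 calls between tissues (median -1.67) and 0 elsewhere, with a brown fat AP20187 median of -0.15, and 17 of 31 changes negative. Slide as a block gave no value between tissues, since brown and white fat share no slide. In this section, the share of all features called is given only for the contradictory array in BAT given vehicle. The counts of calls under the other alternatives thus stand without that background.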

Other observations

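The array with contradictory labels read Col1a1 at 5.63, Col3a1 at 6.97, Col6a5 at 1.34 and Col27a1 at -3.66. On the 4 BAT arrays these genes were at 3.25 to 3.87, 4.09 to 5.18, -5.58 to -5.29 and 0.04 to 0.64, and on the 8 WAT arrays at 5.07 to 5.95, 6.00 to 7.13, -0.02 to 1.91 and -4.24 to -3.04.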
